A study of Ovis aries with 8 samples.

Results

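SCGB3A2, PIGR and ALDH1A1 are genes of the secretory cells that line the conducting airways, and their RNA levels were followed in fetal sheep lungs after aldosterone infusion. Probes were taken by name: every probe whose gene name in the scanner files is one of these genes, or whose description names a secretoglobin, uteroglobin, Clara cell protein, the polymeric immunoglobulin receptor, an aldehyde dehydrogenase 1 or a mucin. The search itself used names alone, but the genes were chosen for description with earlier results of these data known. The search gave 6 probes of 15008 on the array, standing for 4 of the 971 genes named there: 2 for SCGB3A2, 1 for PIGR, 1 for ALDH1A1 and 2 for MUC2, a mucin found by its description. The files call the SCGB3A2 probes LOC780461, with the record text CCSP-related protein, and the symbol came from that gene ID in the RefSeq gene table, because neither the symbol nor any of the searched words stands in the files for them.

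The lungs came from 4 sets of twin sheep fetuses at about 130 days of a 147-day gestation. In each set 1 fetus received 0.2 mg of aldosterone over 48 hours (aldosterone, n = 4) and the other received vehicle for the same time (control, n = 4), with both infusions begun 5 days after surgery. Breed and sex are not given in the sources used here. Total RNA of each lung sample, 450 ng, was labelled with Cy3 and hybridised to an array of its own. The arrays were on 1 slide and were read in 1 scan. The share of spots that stood well clear of background was 76.5% to 85.4% per array. With 4 arrays a group, precision is limited by their number. The lung label was checked on the surfactant genes SFTPA1, SFTPB and SFTPC, which were well above background in 4 of 4 aldosterone and 4 of 4 control lungs. Aldosterone is the adrenal steroid that acts through the mineralocorticoid receptor, and the comparison asks whether 2 days of it changed gene expression in the lung before birth.

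SCGB3A2 is a small secreted protein of the secretoglobin family, made by the non-ciliated club cells of the airway. The polymeric immunoglobulin receptor, PIGR, sits on the basolateral face of mucosal epithelium, binds polymeric IgA and IgM, carries them across the cell and is then cut to leave secretory component in the airway fluid. ALDH1A1 is a cytosolic enzyme that oxidises retinaldehyde to retinoic acid, a signal in lung growth, and it is used as a marker of club cells in the mouse and human airway. MUC2 is a gel-forming mucin best known from the intestine. In bulk lung RNA, fewer cells of a type and less RNA per cell cannot be told apart.

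The sequences of the probes are shown because they set what each value can mean. Each probe has 60 bases; the last 30 are printed for SCGB3A2 and ALDH1A1, and the PIGR probe is printed whole. Capitals mark AATAAA, the letters of the usual polyadenylation signal.
SCGB3A2, probe starting at base 424 of its record: agcccaaaaaagaatgAATAAAgcattgaa
SCGB3A2, probe starting at base 423 of its record: cagcccaaaaaagaatgAATAAAgcattga
ALDH1A1, probe starting at base 1998 of its record: atacttagatgtaacctaaacatacactgt
PIGR, probe starting at base 695 of its record: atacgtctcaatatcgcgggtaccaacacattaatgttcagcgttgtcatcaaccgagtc

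The SCGB3A2 probes share 59 of their 60 bases and are shifted by 1 base, so they are repeat measurements of a single site and not independent readings of the gene. AATAAA begins at base 47 of the probe that starts at 424 and at base 48 of the other. The same letters stand in 5.63% of all probes on the array, and on the opposite strand, as TTTATT, in 3.7% of them and in 0 of the 6 probes described here. The GC content was 35.0% and 36.7% for SCGB3A2, 35.0% for ALDH1A1 and 45.0% for PIGR. The files place none of these probes on a genome build, and no coordinates are given.

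No difference between aldosterone and control lungs passed the test for any of these genes. SCGB3A2 had a lower mean after aldosterone, ALDH1A1 had a slightly lower one and PIGR a higher one, and in each the aldosterone and control values overlapped. Values are log2 processed signal less the 75th percentile of the same array, so that 0 is the brightness of the spot at that percentile, and a value of 1 gene is not set against that of another. Across the array, 12165 probes that stood well above background in 4 or more lungs were tested with limma. After Benjamini-Hochberg adjustment 0.0% of them passed 0.05. An unadjusted p under 0.05 was reached by 1.88%, 1.28% higher and 0.6% lower after aldosterone, and by 4.43% with the replicate number as a block. Of the probes with all 8 values, 1.31% had groups without overlap, 0.856% higher and 0.453% lower. The probes at an unadjusted p under 0.05 were in 68.1% of cases higher after aldosterone, against 52.5% with arrays centred on their medians and 43.4% in the authors' table. Of the 6 probes, 4 passed the filter on dim probes, and the members' counts against these shares are 0 of 3 genes adjusted, 0 of 3 unadjusted and 0 of 3 without overlap.

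**Figure D1:**
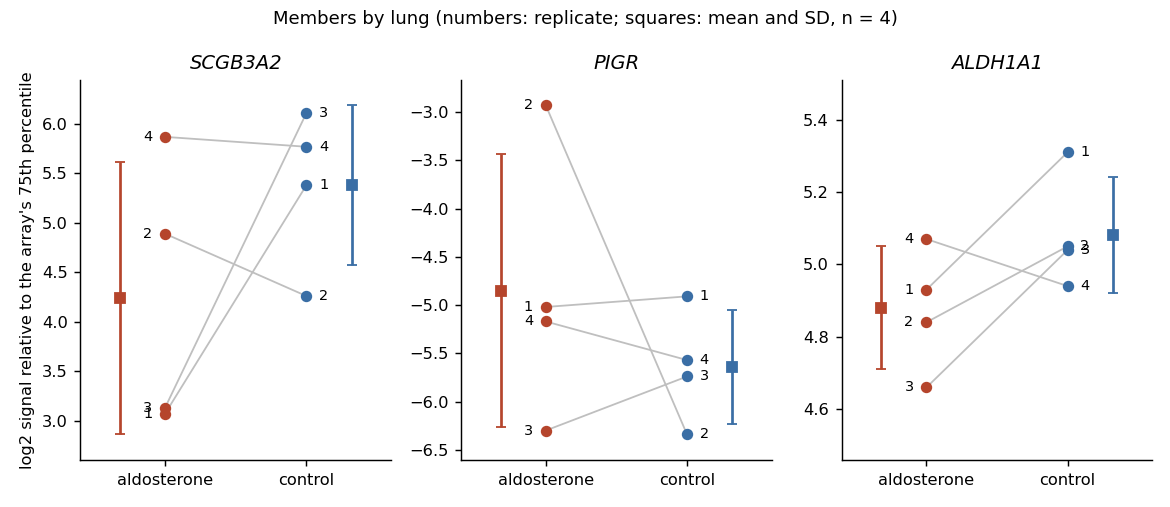
Log2 signal relative to the array's 75th percentile for SCGB3A2, PIGR and ALDH1A1 in each lung, with aldosterone lungs left of control lungs; points are lungs numbered by replicate, grey lines join lungs of the same number, and squares with bars give the mean and SD (n = 4 each). SCGB3A2 ran from 3.07 to 5.87 in aldosterone and from 4.26 to 6.11 in control lungs, PIGR stood highest in aldosterone lung 2 at -2.93, and ALDH1A1 stayed within 4.66 to 5.31.

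SCGB3A2 was bright in every lung. On its brighter probe the log2 values were 3.07, 4.89, 3.13 and 5.87 in aldosterone lungs 1 to 4, against 5.38, 4.26, 6.11 and 5.77 in control lungs 1 to 4. Aldosterone lungs 1 and 3 were lower than every control lung, while aldosterone lungs 2 and 4 lay within the control range. The means were 4.24 ± 1.38 in aldosterone lungs and 5.38 ± 0.81 in control lungs (SD, n = 4 each). The log2 difference was -1.14 ± 0.66 (SE) with a 95% interval of -2.64 to 0.36, a fold of 0.454 within 0.160 to 1.29.

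Limma gave SCGB3A2 an unadjusted p of 0.1205 and an adjusted p of 1. The exact two-sided permutation test gave p = 0.2286, where 0.0286 is the smallest that 4 unpaired lungs against 4 allow. Both tests, here and for PIGR and ALDH1A1 below, took the lungs as unpaired. With the replicate number as a block the unadjusted p in limma was 0.1222 for SCGB3A2, 0.266 for PIGR and 0.1731 for ALDH1A1. The same-numbered lungs differed by -2.31, 0.64, -2.98 and 0.10, lower after aldosterone in 2 of 4 pairs. The dimmer SCGB3A2 probe read 3.04, 4.84, 2.97 and 5.74 in aldosterone lungs and 5.24, 4.25, 6.03 and 5.66 in control lungs. Its difference of -1.15 ± 0.65 repeats that of the brighter probe, and on no array did the pair of probes lie more than 0.16 apart. Without aldosterone lung 1 the difference was -0.75, and without aldosterone lung 3 it was -0.77. Without aldosterone lung 4 it was -1.68, with an unadjusted p of 0.0171 in limma and an adjusted p of 1.00.

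The spread of SCGB3A2 between lungs was wide in both groups. Its pooled SD within groups was 1.13 on the log2 scale, where the median over all tested probes was 0.291 and 2.05% of probes had a larger one. Among control lungs alone 4.72% of probes were more variable, and among aldosterone lungs alone 1.38%. Few probes had a difference as far below 0: 23 of the 12165 tested, 0.189%, lay at or below that of SCGB3A2. Both SCGB3A2 probes are among the 23, and this rank takes no account of the spread between lungs.

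**Figure D2:**
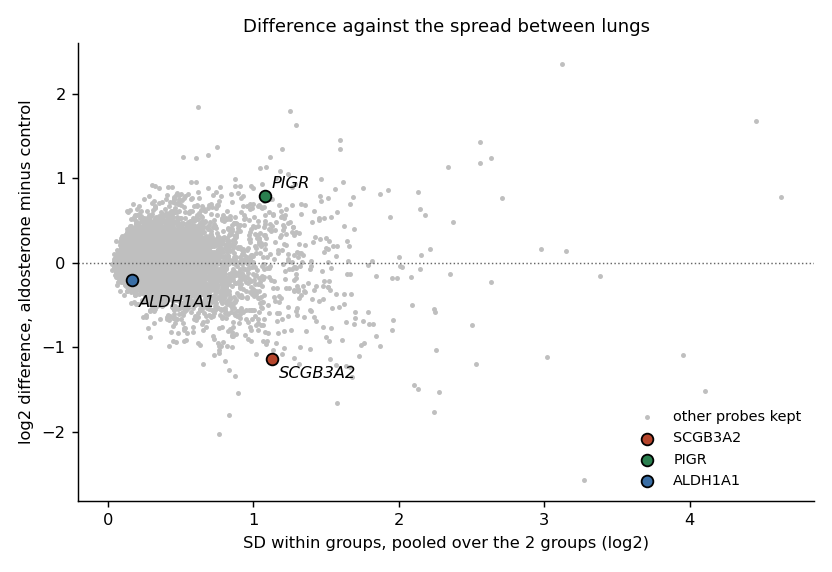
Log2 difference, aldosterone minus control, against the pooled SD within groups on the log2 scale, with 1 grey point for each tested probe and labelled points for the 3 genes. SCGB3A2 (pooled SD 1.13) and PIGR (1.08) lie among the most variable probes, and ALDH1A1 (0.17) among the least variable.

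PIGR was dim. Its probe was well above background in 4 of 4 aldosterone and 4 of 4 control lungs, but its processed signal was 52.4, 192.5, 16.2 and 33.5 in aldosterone lungs and 55.4, 17.3, 26.5 and 26.4 in control lungs, where the lowest signal called well above background on an array was between 8.37 and 19.7. The PIGR signal was thus 1.49 to 15.9 times that lowest signal in aldosterone lungs, and 1.33 to 3.81 times in control lungs. At such a level a small absolute error makes a large log2 error.

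The log2 values of PIGR were -5.02, -2.93, -6.30 and -5.17 in aldosterone lungs, against -4.91, -6.34, -5.74 and -5.57 in control lungs. Aldosterone lung 2 alone was higher than every control lung, and aldosterone lung 3 was near the lowest control lung. The means were -4.85 ± 1.41 in aldosterone lungs and -5.64 ± 0.59 in control lungs (SD, n = 4 each). The log2 difference of 0.79 ± 0.64 (SE) had a 95% interval of -0.65 to 2.23, a fold of 1.73 within 0.636 to 4.68.

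Limma gave PIGR an unadjusted p of 0.2474 and an adjusted p of 1, and the exact two-sided permutation test gave p = 0.4286. Same-numbered lungs differed by -0.11, 3.42, -0.56 and 0.40, higher after aldosterone in 2 of 4 pairs. Without aldosterone lung 2 the difference was 0.14, and without aldosterone lung 3 it was 1.27. After normexp background correction and quantile normalization it was 0.34. Aldosterone lung 2 also stood apart over the whole array, with a score of -41.7 on the second principal component against -10.8 to 22.2 in the other lungs, and the part of this in the PIGR value was not tested. The pooled SD of PIGR was 1.08, with 2.30% of probes more variable. With the PIGR probe included, 61 probes, 0.501%, had a difference at or above that of PIGR.

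ALDH1A1 was bright and even. Its log2 values were 4.93, 4.84, 4.66 and 5.07 in aldosterone lungs, against 5.31, 5.05, 5.04 and 4.94 in control lungs. Aldosterone lungs 1, 2 and 3 were lower than every control lung, and aldosterone lung 4 was higher than control lungs 2, 3 and 4. The means were 4.88 ± 0.17 in aldosterone lungs and 5.08 ± 0.16 in control lungs (SD, n = 4 each). The log2 difference was -0.21 ± 0.15 (SE) with a 95% interval of -0.54 to 0.12, a fold of 0.866 within 0.690 to 1.09.

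Limma gave ALDH1A1 an unadjusted p of 0.1885 and an adjusted p of 1, and the exact two-sided permutation test gave p = 0.1714. Same-numbered lungs differed by -0.37, -0.21, -0.38 and 0.14, lower after aldosterone in 3 of 4 pairs. The pooled SD of 0.17 was smaller than that of 85.3% of tested probes. The 95% interval of the fold reached down to 0.690 for this gene, and to 0.160 for SCGB3A2. Without control lung 1 the difference was -0.13, and without aldosterone lung 3 it was also -0.13.

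MUC2 was too dim to compare. Both of its probes, which share 59 of 60 bases, were well above background on 0 of 8 arrays, with processed signals of 2.75 to 12.5, and no fold is given. They were among the dim probes left out of the test.

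**Figure D3:**
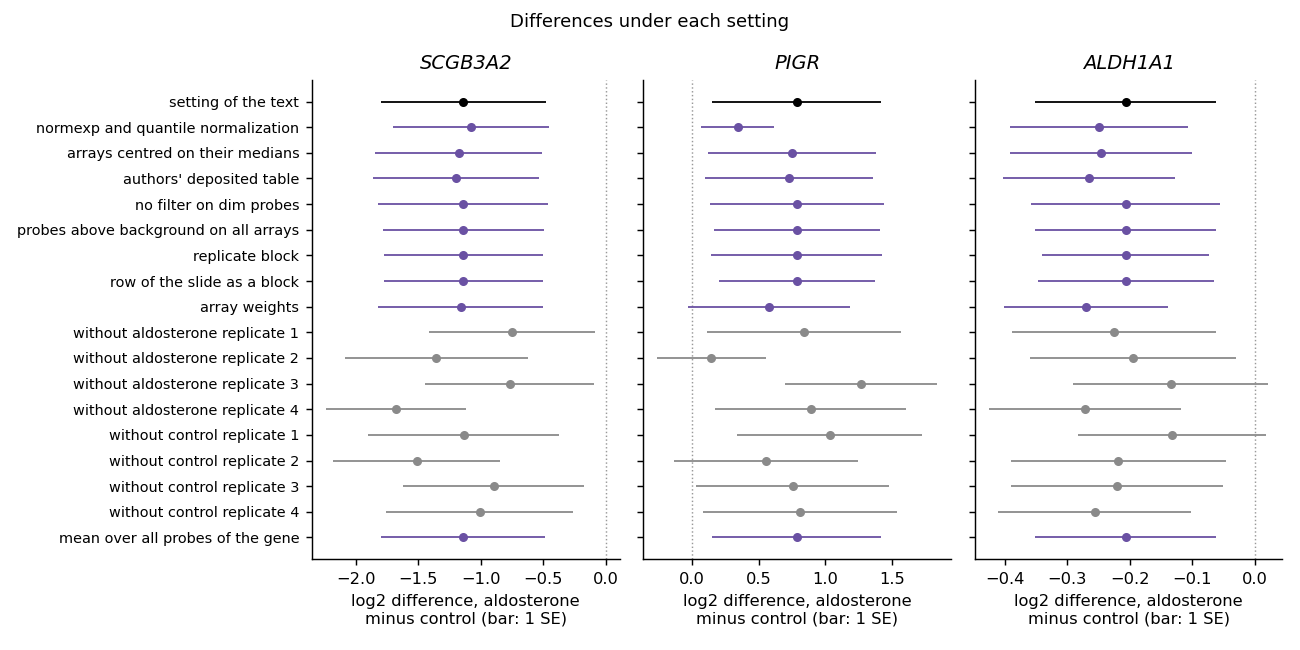
Log2 difference, aldosterone minus control, for SCGB3A2, PIGR and ALDH1A1 under the setting of the text (black), other settings (purple) and with each lung left out in turn (grey); bars are 1 SE, and PIGR and ALDH1A1 have 1 probe, so their mean over probes repeats the setting of the text. SCGB3A2 ran from -1.68 to -0.75, PIGR from 0.14 to 1.27 and ALDH1A1 from -0.27 to -0.13, and the sign of each was the same throughout.

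The wider set of club and goblet cell genes held higher and lower means side by side. Of 30 genes listed, 7 were on the array and all 7 were measured. Here and below, a gene counts as on the array only if a probe carries its name. Of the 15008 probes 13429 carried none, so other listed genes may have unnamed probes. A higher mean after aldosterone was seen in 2 of them and a lower one in 5, against 51.5% and 48.5% of all tested probes, and 0 passed the adjusted threshold. Their median difference was -0.21, with a range of -1.14 to 0.79, against 0.0073 over all tested probes. The median was -0.47 without aldosterone lung 2 and -0.13 without aldosterone lung 3. The 3 genes described above are among the 7. The 4 remaining ones, given here because they complete the list, were LTF, TFF3, LYZ and SLPI.

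LTF encodes lactoferrin, an iron-binding protein of secretions and of neutrophil granules, and had a difference of -0.53 ± 0.41 (SE, n = 4 each). TFF3, a trefoil peptide secreted with mucus, had one of -0.30 ± 0.28, which was -0.56 without aldosterone lung 2 and -0.13 without aldosterone lung 3. LYZ, the bacteria-digesting lysozyme, had one of 0.22 ± 0.62, with aldosterone lung 2 at 0.52 and the other aldosterone lungs between -2.59 and -1.74, against -2.16 to -1.34 in control lungs. Without aldosterone lung 2 the LYZ difference was -0.47. SLPI, a protease inhibitor of airway fluid, had a difference of -0.01 ± 0.34, with 0.03 at its second probe, and the sign turned in some of the fits with a lung left out. The mean level of the 7 genes lay between -0.77 and 1.02 in aldosterone lungs and between 0.12 and 0.30 in control lungs.

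Markers of other cells of the airway and alveolus gave the setting for these values. SPA17, a protein of cilia and sperm tails and the 1 ciliated cell gene measured, had a difference of -0.19 ± 0.21. CLDN3, a tight junction claudin, was the 1 general epithelial gene measured, at 0.21 ± 0.22. Of 5 alveolar type II genes 2 were higher and 3 lower, with a median of -0.01. Of 3 alveolar type I genes 1 was higher and 2 lower, with a median of -0.05. With a lung left out these medians ran from -0.17 to 0.09 and from -0.16 to 0.20, on both sides of 0. Among the type I genes IGFBP2, a binding protein of insulin-like growth factors, was at 0.69 ± 0.42 and higher after aldosterone in 4 of 4 pairs. Its difference was 0.38 when aldosterone lung 2 was left out. The other type I genes, CAV1 and AQP5, were at -0.09 ± 0.17 and -0.05 ± 0.32. TP63, the 1 basal cell gene on the array, did not pass the filter on dim probes. None of these genes passed limma's adjusted threshold of 0.05.

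Neutrophil and myeloid granule genes, which include LTF, had lower means in 5 of 6 cases, with a median of -1.03. CATHL3, a cathelicidin antimicrobial peptide of neutrophil granules, was 0.45, 0.37, 0.06 and 0.34 in aldosterone lungs, against 1.00, 2.50, 1.99 and 0.51 in control lungs. All aldosterone lungs were thus lower than all control lungs for CATHL3, as for 0.453% of all probes with 8 values. Its difference was -1.20 ± 0.39, the cathelicidin SC5 had -1.27 ± 0.49 and BAC5 had -1.07 ± 0.45. Across the list 3 of 6 had an unadjusted p under 0.05 in limma, where 1.88% of all tested probes did. With the replicate number as a block CATHL1B, another cathelicidin, made it 4 of 6, against 4.43% of all probes. These 4 genes all belong to the cathelicidin family, so they cannot be counted as independent readings against those shares. Outside that family LTF had -0.53 ± 0.41. MMP9, well above background in 3 of 4 lungs of each group, had 0.19 ± 0.42. After adjustment 0 passed in either fit. Without control lung 2 the median of the list was -0.65, and the differences of BAC5 and SC5 were -0.68 and -0.74. Without the same lung the LTF difference was -0.27, and without aldosterone lung 3 it was -0.24. The part of granulocytes in the LTF value was not tested. The mean level of this list was -1.58 to -0.72 in aldosterone lungs and -1.20 to 0.57 in control lungs.

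PIGR was next set beside the genes of the system it serves and those that control it. In human epithelial cells its transcription is raised by interferon gamma, tumour necrosis factor, interleukin 1 and bacterial signals through MYD88. Of 23 such genes listed 13 were on the array and 11 were measured, 3 with a higher mean and 8 with a lower one, and 0 passed the test. Their median difference was -0.10, with a range of -0.98 to 0.27. Leaving out each lung in turn moved that median from -0.49, without control lung 2, to 0.25, without control lung 4, so its sign and size rest on single lungs. IFNG, the interferon itself, had -0.62 ± 0.32 and was lower after aldosterone in 4 of 4 pairs. But its difference was -0.29 without aldosterone lung 1 and -0.16 after normexp and quantile normalization. The IFNG probe was dim, at means of -5.90 in aldosterone and -5.27 in control lungs. It was well above background in 3 of 4 aldosterone and 4 of 4 control lungs. MYD88, the adaptor of Toll-like and interleukin 1 receptors, had 0.27 ± 0.16 and was higher in 4 of 4 pairs, with 0.16 without aldosterone lung 3 and 0.14 after normexp and quantile normalization. It was not counted how many of all tested probes went the same way in 4 of 4 pairs, here or for IGFBP2.

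TNF had a difference of -0.98 ± 1.02 and IL1B one of -0.87 ± 1.08, and in both the size rested on a single control lung. TNF was -3.01, -1.54, -2.29 and -1.83 in aldosterone lungs, against -2.22, -2.30, -2.61 and 2.36 in control lungs. IL1B was -4.45, -2.89, -4.22 and -3.29 in aldosterone lungs, against -3.93, -4.14, -4.19 and 0.90 in control lungs. Control lung 4 was therefore far above the other 7 lungs in both genes. The PIGR value of that lung, -5.57, lay between those of the other control lungs. Without control lung 4 the difference was 0.21 for TNF and 0.37 for IL1B.

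Of 25 genes of mucosal immunoglobulin transport and the antibody-forming B lineage, 8 were on the array and 5 were measured. Of these 4 had a higher mean after aldosterone and 1 a lower one, with a median of 0.16 that ran from 0.01 to 0.39 with a lung left out, and 0 passed the test. XBP1, the transcription factor of plasma cell secretion, had a difference of 0.18 ± 0.23. CD40, the B cell receptor of T cell help, had -0.48 ± 0.61, and CCR10, the homing receptor of IgA plasma cells, had 0.04 ± 0.14. The sign of CD40, CCR10 and CR2 turned under some settings. The B cell complement receptor CR2 had 0.16 ± 0.89. TNFSF13B, CD40LG and CCL28 were on the array and did not pass the filter on dim probes.

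**Figure D4:**
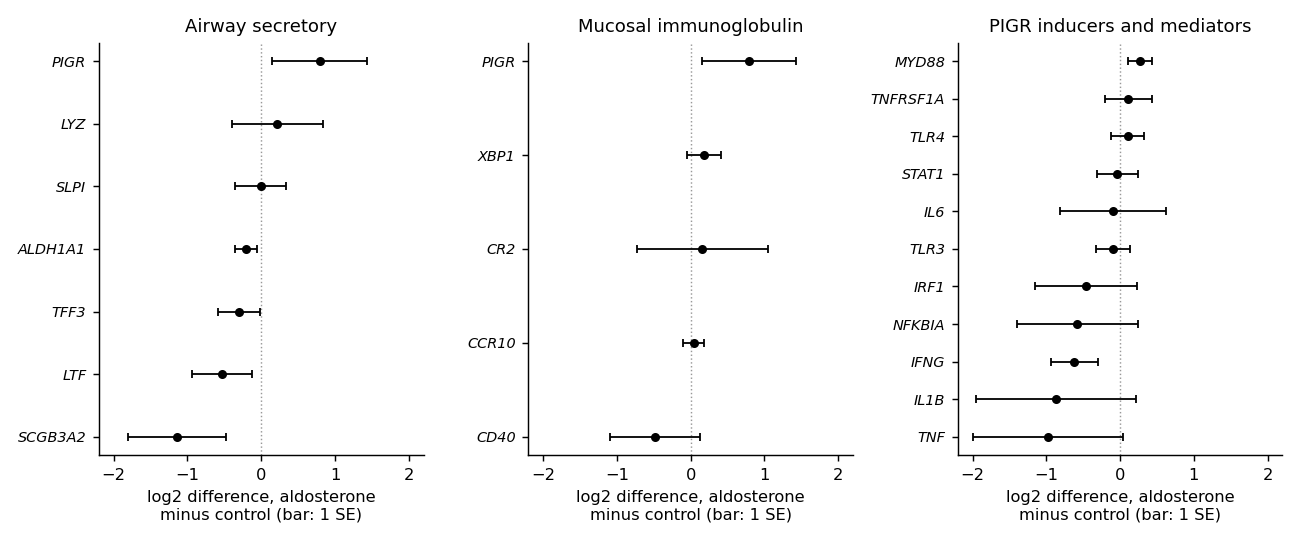
Log2 difference, aldosterone minus control, with bars of 1 SE, for every measured gene of the airway secretory, mucosal immunoglobulin and PIGR inducer lists (7, 5 and 11 genes). The airway secretory genes ran from -1.14 for SCGB3A2 to 0.79 for PIGR, and the PIGR inducers from -0.98 for TNF to 0.27 for MYD88.

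The other retinoic acid genes could barely be read on this array. Of 33 listed, 2 were measured, ALDH1A1 and FABP5, and FABP5, which carries retinoic acid to a nuclear receptor, had a difference of 0.09 ± 0.27 whose sign turned without aldosterone lung 4 or control lung 1. None of 14 other aldehyde dehydrogenase genes listed had a named probe.

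Across the 8 lungs the 3 genes did not vary as one. Pearson's r was 0.557 between SCGB3A2 and ALDH1A1, 0.165 between SCGB3A2 and PIGR and 0.023 between PIGR and ALDH1A1, over lungs that share their slide and scaling. These and the following values are descriptions over 8 lungs of both groups and carry no test. Of 781 named genes compared, the one most like SCGB3A2 was SFTPA1, a surfactant protein of alveolar type II cells that airway secretory cells also make, at r = 0.91, or 0.90 with the group means removed. The SFTPA1 log2 values were 6.24, 6.73, 6.37 and 7.01 in aldosterone lungs, against 6.64, 6.48, 6.99 and 7.24 in control lungs, and its own difference was -0.25 ± 0.23. Both genes were lowest in aldosterone lungs 1 and 3.

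Next to SCGB3A2 after SFTPA1 came the homeobox factor BARX2 at r = 0.888, the membrane scaffold SLC9A3R1 at 0.862, the transcription factor TFAP2A at 0.850 and the plasma protein AHSG at 0.839. At its lowest with a lung left out, r was 0.825 for BARX2, 0.792 for SLC9A3R1, 0.776 for TFAP2A and 0.753 for AHSG. Spearman's rank correlation was 0.548 for TFAP2A and 0.81 or more for the others. The TFAP2A probe was not well above background on all arrays. Its difference of -1.20 became -0.10 after normexp and quantile normalization, and that of BARX2 went from -0.47 to -0.17. The genes most like PIGR were ASRGL1, an asparaginase, at r = 0.942, IGFBP2 at 0.935, CDK1, a kinase of mitotic entry, at 0.901, the adenosine receptor ADORA3 at 0.896 and the interleukin 2 receptor chain IL2RA at 0.896. With aldosterone lung 2 left out, r with PIGR was 0.918 for IGFBP2, 0.743 for ASRGL1, 0.604 for CDK1, 0.578 for IL2RA and 0.497 for ADORA3. The likeness of the last 3 to PIGR therefore rests largely on that lung, while that of IGFBP2 does not.

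The genes most like ALDH1A1 were EIF4A2, an RNA helicase of translation initiation, at r = 0.922, FCER1A, a chain of the IgE receptor of mast cells, at 0.851, and probes that the files name EM4B at 0.846, PPLBC at 0.792 and EM4C at 0.754. With control lung 1 left out, r with ALDH1A1 was 0.857 for EIF4A2, 0.672 for EM4B and 0.562 for PPLBC. With aldosterone lung 3 left out it was 0.743 for FCER1A and 0.578 for EM4C.

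**Figure D5:**
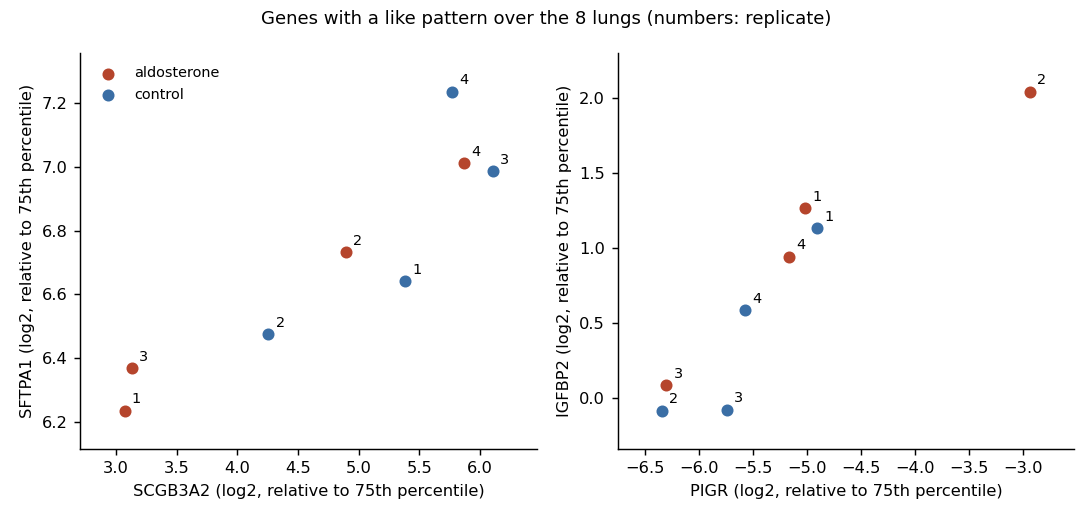
Log2 values relative to the array's 75th percentile in each lung, SFTPA1 against SCGB3A2 on the left and IGFBP2 against PIGR on the right, with aldosterone lungs in red and control lungs in blue, numbered by replicate. SCGB3A2 and SFTPA1 (r = 0.91) were both lowest in aldosterone lungs 1 and 3, and PIGR and IGFBP2 (r = 0.935) were both highest in aldosterone lung 2. Of the 5 genes most like PIGR over all 8 lungs, IGFBP2 is drawn because its r was highest with that lung left out (0.918).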

How the data were processed

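Per the file headers, the authors made the deposited scanner files, which hold spot intensity on a linear scale, with Agilent Feature Extraction 10.1.1.1, including background subtraction, and the headers record no scaling across arrays. The authors' deposited table of the series has log2 values, and each column equalled log2 of that array's processed intensity minus a constant; it served as an alternative. How its spots were filtered is not stated in these sources.

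From 15208 non-control spots, each array's 75th percentile of log2 processed signal was subtracted, 74 values with outlier flags were left out, and spots of a probe were averaged. The 12165 probes well above background on 4 or more arrays entered a two-sided limma test (version 3.58.1, R 4.3.3; lmFit, then eBayes), adjusted over all of them by Benjamini-Hochberg at 0.05. The fit was tested on simulated data. The brightest probe stood for a gene that had more than 1. Of the 15008 probes, 13429 carried no gene name and 15 matched several genes; names came from a RefSeq table of ARS-UI_Ramb_v3.0.

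Groups came from the labels. The labels describe twins without saying that the replicate number marks a set, so the fit held the group alone. With group means removed, same-numbered lungs correlated at 0.446, 0.275, 0.28 and 0.538 and others at -0.449 to 0.203. Same-numbered lungs also lay in the same row of the slide. Of the others, lungs in the same row correlated at -0.039 to 0.203 and lungs in different rows at -0.449 to -0.067. The part of the row in the same-number values was not tested. The numbers were used as pairs in the block fit and in the differences of same-numbered lungs. The main limma fit and the permutation tests did not use them. Alternatives were other normalizations and filters, the replicate number or the row of the slide as a block, array weights and leaving out each lung.

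The members and gene lists were chosen with earlier results of these data known. Genes named are the probes found by the search, the 5 genes most like each member by Pearson's r, and up to 4 of each list by unadjusted p. The rest of the airway secretory list, CR2, MMP9, NFKBIA and IRF1 were added after their values were seen.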

Additional observations from a re-analysis of the deposited data

Results flagged for a closer look

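Among 33 genes, or 66 groups of 4 lungs, 4 groups held a lung far from the other 3 of its group. Chance gives about 1 in 20 groups, so 4 of 66 is near that rate. Of the 4, 3 concerned control lung 4, and genes that rise together in a lung are not independent readings of it. CD40 was 1.08 on the log2 scale in control lung 4, where the other control lungs lay from -1.74 to -1.36. TNF was 2.36 there, against -2.61 to -2.22 in the other control lungs. IL1B was 0.90 there, against -4.19 to -3.93 in the other control lungs. NFKBIA and IRF1, of the PIGR inducer list but outside the 33 genes, were not screened and also stood high in control lung 4. NFKBIA was 5.04 there, against 1.22 to 1.31 in the other control lungs, and IRF1 was 1.42, against -2.06 to -1.60. In aldosterone lung 1, JAG1 was -4.82, against -5.21 to -5.19 in the other aldosterone lungs. In control lung 4 SCGB3A2 was 5.77, PIGR -5.57 and ALDH1A1 4.94, of which SCGB3A2 and PIGR lay between the other control lungs and ALDH1A1 was the lowest control.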

How the results depend on the processing

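SCGB3A2, PIGR and ALDH1A1 kept their sign and stayed above the adjusted threshold under all 17 alternatives, and 0 probes passed limma's adjusted threshold in any of 16 fits. Leaving out each lung moved the log2 difference from -1.68 to -0.75 for SCGB3A2, from 0.14 to 1.27 for PIGR and from -0.27 to -0.13 for ALDH1A1. The other settings gave -1.20 to -1.08, 0.34 to 0.79 and -0.27 to -0.21. With the replicate number as a block the differences were the same, at -1.14, 0.79 and -0.21, the smallest adjusted p in limma for the 3 genes was 0.878, and the block changed no call. Probes with an unadjusted p under 0.05 numbered 229, and 539 with the replicate block, 932 with array weights and 343 with the row of the slide as a block. They numbered 422 without aldosterone lung 1, and 383, 147, 143 and 387 without control lungs 1, 2, 3 and 4. Direction changed for 12 of 33 genes run. With a lung left out LYZ ran from -0.47 to 0.57, SLPI from -0.28 to 0.20, CD40 from -0.75 to 0.19, CCR10 from -0.044 to 0.087, CR2 from -0.57 to 0.89, FABP5 from -0.051 to 0.30, CEBPB from -0.061 to 0.34, JAG1 from -0.064 to 0.13, IL10 from -0.59 to 0.39 and PECAM1 from -0.023 to 0.20. TNF ran from -1.45 to 0.21 and IL1B from -1.32 to 0.37, the highest of each without control lung 4. With array weights LYZ was at -0.193, CD40 at 0.0906, JAG1 at -0.0155 and IL10 at 0.0381. CCR10 was at -0.00107 after normexp and quantile normalization, -2.08e-05 with arrays centred on their medians and -0.0198 in the authors' deposited table, and JAG1 at -0.0181 after normexp and quantile normalization and -0.0187 in that table. The cause was not tested. Signal near background limits PIGR, and MUC2 was not called well above background on any array.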

Other observations

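Other cell types of the lung gave these values beside the airway genes. Of 4 macrophage genes 3 had a higher mean after aldosterone, with a median log2 difference of 0.31, and CD14, the lipopolysaccharide co-receptor, had 0.42 ± 0.23 (SE, n = 4 each). The 3 endothelial genes had a median of 0.07, and PECAM1, an adhesion molecule of endothelial junctions, had 0.07 ± 0.17. KDR had 0.18 ± 0.22, with -0.05, -0.08 and 0.14 on its other probes. FLT1 had -0.28 ± 0.43 and was well above background in only 2 of 4 lungs of each group. The 3 red blood cell genes all had lower means, with a median of -0.72, and HBB, the beta globin, had -0.56 ± 0.58. That median was -0.28 without aldosterone lung 1, -0.32 without aldosterone lung 4, -0.42 without control lung 2 and -0.31 without control lung 3, and -1.09 without aldosterone lung 2. The medians ran from 0.15 to 0.51 for macrophage genes and from -0.0026 to 0.20 for endothelial genes with a lung left out. Of 31 listed regulators of lung epithelium and partners of SCGB3A2, 3 were measured, with a median of 0.04. The transcription factor CEBPB had 0.09 ± 0.30, the Notch ligand JAG1 0.04 ± 0.17 and the cytokine IL10 -0.21 ± 0.66, with 0.22 on its other probe. The median of the 3 ran from -0.06 to 0.34 with a lung left out. In limma 0 of these 13 genes passed the adjusted threshold, and 0 had an unadjusted p under 0.05. With the replicate number as a block the unadjusted p in limma was 0.0222 for the macrophage integrin ITGAM and 0.0480 for AHSP, the chaperone of alpha globin. Of all probes 4.43% were under 0.05 in that fit, and 0 passed after adjustment. ITGAM was lower after aldosterone, at -0.84 ± 0.65, unlike the other macrophage genes. It was near background, well above it in 1 of 4 aldosterone and 3 of 4 control lungs. AHSP was also lower, at -0.72 ± 0.99.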
